A study of Mus musculus with 4 samples.

Results

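The Th17 cluster of orthotopic CT26 tumors, as the study's authors named it, held 326 of 17674 single cells, 192 in Cyp51-KO tumors and 134 in sg-Ctrl tumors. Its members were taken as every cell that carries the deposited cluster name Th17, and no measured value was used to add or remove a cell. The Cyp51-KO group had 9 tumors grown from CT26 cells, a mouse colorectal cancer line, in which Cyp51 had been targeted by CRISPR. The sg-Ctrl group had 12 tumors grown from CT26 cells with a control guide. All tumors grew orthotopically in male BALB/c mice injected at 8 to 10 weeks of age and were taken at day 26. Both lines carried a Cas9 vector with TagBFP, by which they were sorted, but the methods do not state whether they were clones. The mice themselves were not edited, so the cells of the Th17 cluster carried an unedited Cyp51 in both groups. Bulk CD45+ leukocytes, CD3+ T cells and BFP+ tumor cells had been sorted and mixed at 50, 40 and 10%, and the mix was sequenced by 5’ droplet RNA sequencing. A T cell could therefore enter the mix through the bulk sort or through the T cell sort, and shares describe this mix and not the tumor.

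Th17 cells are T helper cells that secrete interleukin-17, a cytokine that acts on epithelium and stroma and helps to draw in neutrophils. The same cytokine is made by gamma-delta T cells, innate-like lymphocytes of barrier tissues that carry a T cell receptor of a gamma and a delta chain in place of the alpha and beta chains of CD4+ cells. The transcription factor RORγt drives both. The product of Cyp51 removes a methyl group from lanosterol on the way to cholesterol, and the study asked whether sterol precursors made by tumor cells act on Th17 cells.

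The 4 genes taken as markers of this cluster are one cytokine gene that both kinds of cell use and 3 genes of gamma-delta T cells. *Il17a*, on chromosome 1 from 20730905 to 20734496 (GRCm38.p6), is a protein-coding gene and encodes interleukin-17A, which both make. *Trdv4*, on chromosome 14 from 54075004 to 54075515, is a variable segment of the receptor delta chain. *Tcrg-V6*, which RefSeq lists as *Trgv6*, lies on chromosome 13 from 19190368 to 19190929 and is a variable segment of the gamma chain. *Cd163l1*, on chromosome 7 from 140197218 to 140231145, encodes a scavenger receptor known from mouse gamma-delta T cells that make interleukin-17. The receptor segments and *Cd163l1* are thus genes of gamma-delta T cells, as background, rather than of CD4+ helper cells. The name could not be set against gene levels, since expression per cell was not analysed here. The name Th17 is therefore used below as that of the cluster, for a set of cells that may hold CD4+ cells, gamma-delta cells or both.

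Each cell came with its number of unique molecular identifiers (UMIs, counts of single captured RNA molecules), the number of genes with at least 1 UMI, and the percentage of UMIs from mitochondrial genes. Over the whole series the median cell had 6508.5 UMIs for Cyp51-KO tumors, against 7822.5 for sg-Ctrl tumors, and the median lymphocyte had 3898 UMIs in Cyp51-KO and 7088 in sg-Ctrl. The median UMIs were lower in Cyp51-KO tumors in 18 of 20 clusters and in 13 of 13 lymphocyte clusters. Each cell is linked to a group but to no library or mouse, which leaves 1 sample per group and no test between them. The 95% intervals of shares are exact binomial ones (Clopper-Pearson), and all intervals below cover counting error alone, without the spread between tumors, sorts or libraries. Of the cell barcodes, 98 occurred in both groups, 10 of them under the same cluster name. Of these 98, 0 were cells of the Th17 cluster in Cyp51-KO and 1 was in sg-Ctrl tumors.

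How large the cluster was relative to other T cell clusters was asked first, since a ratio between T cell clusters leaves the other cells of the mix out of the denominator. The clusters named Treg (regulatory CD4+ T cells, which restrain other T cells) and Th1-like (helper cells of the kind that makes interferon-gamma) served for this. In Cyp51-KO tumors there were 63.0 cells of the Th17 cluster per 100 Treg cells (192 and 305 cells), against 51.1 in sg-Ctrl tumors (134 and 262 cells). Per 100 Th1-like cells there were 28.5 in Cyp51-KO tumors (673 Th1-like cells), against 22.3 in sg-Ctrl tumors (602 Th1-like cells). Both ratios were higher in Cyp51-KO tumors, with intervals that overlapped. As a share of Th17 and Treg cells together the cluster was 38.6% in Cyp51-KO (95% interval 34.3 to 43.1%) against 33.8% in sg-Ctrl (29.2 to 38.7%), a log2 ratio of Th17 to Treg cells of 0.30. As a share of Th17 and Th1-like cells together it came to 22.2% in Cyp51-KO (19.5 to 25.1%) against 18.2% in sg-Ctrl (15.5 to 21.2%), a log2 ratio of 0.36. Of the filters run on these 2 ratios, only that of at least 1000 UMIs parted the intervals, and only for Th1-like cells: among cells so kept the cluster was 25.8% for Cyp51-KO tumors, against 18.9% for sg-Ctrl tumors (log2 ratio 0.57). It removed 140 Th1-like cells but only 7 Th17 cells in Cyp51-KO tumors, and 27 Th1-like and 0 Th17 cells in sg-Ctrl tumors.

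Among all cells of the 3 clusters, Th17 cells were 16.4% in Cyp51-KO (14.3 to 18.7%), against 13.4% in sg-Ctrl tumors (11.4 to 15.7%), and among the 8 T cell clusters they were 4.29% in Cyp51-KO (3.72 to 4.93%) and 3.31% in sg-Ctrl (2.78 to 3.91%). Leaving out proliferating T cells from the lymphocytes, the share was 3.54% for Cyp51-KO tumors, against 2.79% for sg-Ctrl tumors. With all 8 denominators the intervals of the groups overlapped. The log2 ratio lay between 0.21 and 0.38 with 7 of them and at -0.025 over all cells. Epithelial clusters, tumor cells included, were 24.6% of all cells for Cyp51-KO tumors, against 11.1% for sg-Ctrl tumors.

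**Figure D1:**
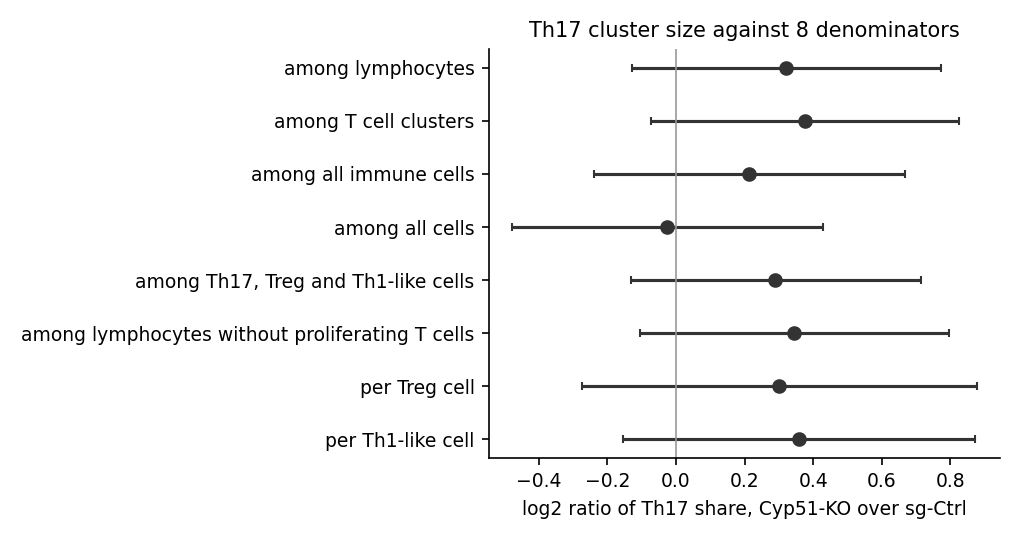
Log2 ratio of the size of the Th17 cluster, Cyp51-KO over sg-Ctrl, against 8 denominators, with bars that set the bounds of both exact 95% intervals against each other. Every bar crosses 0, and the point lies above 0 with 7 denominators and at -0.025 over all cells.

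The larger difference was in the RNA captured per cell. Cells of the Th17 cluster in Cyp51-KO tumors had from 507 to 27900 UMIs with a median of 2519 (95% interval over cells 2281 to 2683), whereas those in sg-Ctrl tumors had from 1198 to 35898 with a median of 5453.5 (4933 to 6304). The middle part of the cells did not overlap: the 25th to 75th percentile was 1910.25 to 3358 UMIs in Cyp51-KO and 4152 to 7725.5 UMIs in sg-Ctrl tumors. Such separation of the interquartile ranges, lower in Cyp51-KO tumors, was found in 3 of 13 lymphocyte clusters (23.1%), the Th1-like and CD8+ Temra clusters (Temra, an effector memory state of CD8+ T cells) being the others, and in 3 of 20 clusters (15%) over the whole series.

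Set as pairs, a cell of the Th17 cluster from a Cyp51-KO tumor had fewer UMIs than one from an sg-Ctrl tumor in 87.4% of all pairs. This was the highest value of the 13 lymphocyte clusters, followed by CD8+ Temra cells (83.3%), and the values ran down to 62.8%. The value was 74.0% for Treg and 81.3% for Th1-like cells. The log2 ratio of the medians, -1.11, was the second lowest after that of Th1-like cells (-1.18), next to CD8+ Temra cells (-1.02), and Treg cells were at -0.88. With 1 sample per group it was not tested whether these clusters differ from one another. Of the Cyp51-KO Th17 cells, 68.2% lay below the 10th percentile of the sg-Ctrl Th17 cells (3009.2 UMIs). Below the 10th percentile of their own cluster in sg-Ctrl tumors lay 60.2% of Cyp51-KO B cells and 56.1% of Cyp51-KO CD8+ Temra cells. For Cyp51-KO Treg cells it was 45.9%, and for Cyp51-KO Th1-like cells 43.7%.

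**Figure D2:**
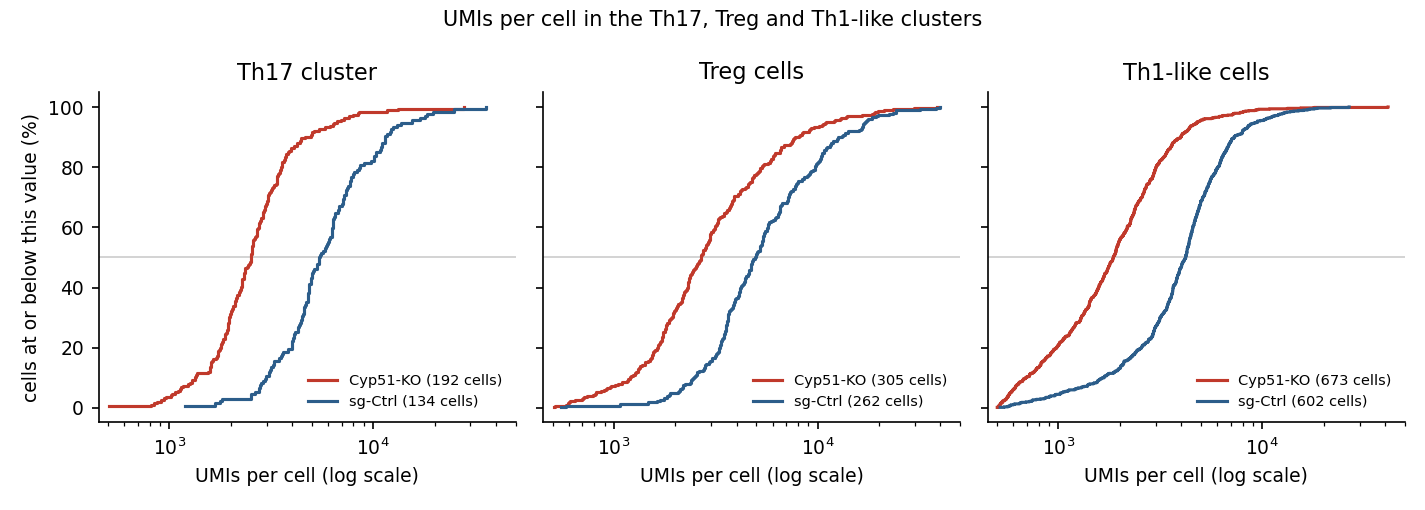
Cumulative percentage of cells against UMIs per cell (log scale) in the Th17, Treg and Th1-like clusters, for Cyp51-KO and sg-Ctrl tumors. In the Th17 cluster the Cyp51-KO curve is the steeper one and reaches 86.5% of cells by 4000 UMIs, where the sg-Ctrl curve stands at 20.1%.

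Cells of few and of many UMIs show the same shift. Under 2000 UMIs were 31.2% of the Th17 cells of Cyp51-KO tumors (60 of 192 cells, 24.8 to 38.3%) and 2.99% of those of sg-Ctrl tumors (4 of 134 cells, 0.819 to 7.47%). Of Treg cells, 32.1% in Cyp51-KO and 4.96% in sg-Ctrl were under this limit, and of Th1-like cells 55.9% in Cyp51-KO and 13.1% in sg-Ctrl. Under 1000 UMIs were 3.65% of the Th17 cells in Cyp51-KO tumors (7 cells, 1.48 to 7.37%) and 0 of 134 in sg-Ctrl tumors, which allows a share of up to 2.24%. Few cells of the cluster thus stood near the minimum of 500 UMIs set by the authors, fewer than among Th1-like cells (20.8% under 1000 UMIs in Cyp51-KO and 4.49% in sg-Ctrl). At the upper end, 8000 or more UMIs were counted in 2.60% of the Th17 cells in Cyp51-KO tumors (5 cells, 0.851 to 5.97%) and in 22.4% in sg-Ctrl tumors (30 cells, 15.6 to 30.4%). Cells of 16000 or more UMIs numbered 1 in Cyp51-KO and 6 in sg-Ctrl. The sources used here do not give how doublets were handled, and these few cells of many UMIs were kept.

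The spread among the members was narrow beside other lymphocyte clusters in Cyp51-KO tumors, but not in sg-Ctrl tumors. In Cyp51-KO tumors the 75th percentile of UMIs was 1.76 times the 25th, the lowest such ratio of the 13 lymphocyte clusters, which reached 3.09. In sg-Ctrl tumors it was 1.86, sixth of 13. For Treg cells the ratio was 2.67 in Cyp51-KO against 2.27 in sg-Ctrl, and for Th1-like cells 2.46 in Cyp51-KO and 1.88 in sg-Ctrl.

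Summed over cells, the Th17 cluster gave 575616 UMIs in Cyp51-KO tumors (exact Poisson 95% interval 574130 to 577105), against 908214 in sg-Ctrl tumors (906347 to 910084), although it had more cells in Cyp51-KO tumors. These intervals cover the counting of UMIs and leave out the spread between cells, which reached 27900 UMIs in a single Cyp51-KO cell. The sums came to 2998 UMIs per cell for Cyp51-KO tumors, against 6778 for sg-Ctrl tumors. As a part of all lymphocyte UMIs the order of the groups was the opposite of that by cells, with 1.57% for Cyp51-KO tumors, against 1.96% for sg-Ctrl tumors. By cells it was 3.22% of lymphocytes in Cyp51-KO and 2.58% in sg-Ctrl. The 10% of cells with the most UMIs held 27.2% of the cluster's UMIs in Cyp51-KO tumors (19 cells), against 24.7% in sg-Ctrl tumors (13 cells). Fewer RNA molecules per cell and a lower rate of capture cannot be told apart in these totals.

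Since UMIs were lower in Cyp51-KO tumors across lymphocyte clusters, the Th17 cells were also placed within their own group. Ranked among all lymphocytes of its own group, the median Th17 cell stood at the 29.0th percentile of UMIs in Cyp51-KO and at the 33.8th in sg-Ctrl tumors. The median Treg cell stood at 31.8 in Cyp51-KO against 28.5 in sg-Ctrl, and the median Th1-like cell at 16.6 in Cyp51-KO against 19.8 in sg-Ctrl. The log2 ratio of the Th17 median less that of all lymphocytes was -0.25. In order of median UMIs the cluster took place 3 of 13, lowest first, in Cyp51-KO tumors, between B cells (2062) and Treg cells (2686), and place 4 in sg-Ctrl tumors, between Treg cells (4947) and CD8+ HSP+ cells (5679.5). The interquartile ranges of Th17 and Treg cells overlapped in both groups.

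The lymphocytes of each group were next divided by UMIs into 5 bins of equal size. In bin 1, with the fewest UMIs, the cluster made up 5.29% in Cyp51-KO (63 of 1191 cells, 4.09 to 6.72%), against 3.28% in sg-Ctrl tumors (34 of 1038 cells, 2.28 to 4.55%). In bin 2 it made up 6.38% for Cyp51-KO tumors, against 3.85% for sg-Ctrl tumors. By point value the share was highest in bin 2 in both groups. Its intervals there, 5.06 to 7.92% in Cyp51-KO and 2.76 to 5.21% in sg-Ctrl, overlapped those of bin 1 in the same group. Bin 3 had 2.94% in Cyp51-KO and 2.99% in sg-Ctrl, and bin 4 had 1.26% in Cyp51-KO and 1.83% in sg-Ctrl. Bin 5, with the most UMIs, had 0.252% in Cyp51-KO (3 cells) and 0.962% in sg-Ctrl (10 cells). The intervals overlapped in all 5 bins, and the log2 ratio was 0.73 in bin 2 and -1.94 in bin 5. Bins 1 and 2 together held 72.4% of the Th17 cells in Cyp51-KO tumors and 55.2% in sg-Ctrl tumors.

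In classes with the same UMI limits in both groups, each from a lower limit to just under an upper one, the share crossed over by its point values. Under 1000 UMIs, Th17 cells were 2.71% of lymphocytes in Cyp51-KO (7 of 258 cells, 1.10 to 5.51%). In sg-Ctrl they were 0 of 42, which allows a share of up to 7.14%. Among lymphocytes of 2000 to 4000 UMIs, Th17 cells were 5.63% in Cyp51-KO (106 cells, 4.63 to 6.77%), against 3.13% in sg-Ctrl tumors (23 cells, 1.99 to 4.66%). Among those of 4000 to 8000 UMIs they were 1.37% in Cyp51-KO (21 cells, 0.848 to 2.08%) and 3.67% in sg-Ctrl (77 cells, 2.91 to 4.57%), the only class with intervals apart. The class of 1000 to 2000 UMIs had 5.92% in Cyp51-KO (53 cells) and 3.12% in sg-Ctrl (4 cells), and the class of 8000 to 16000 had 0.415% in Cyp51-KO (4 cells) and 1.52% in sg-Ctrl (24 cells). Th1-like cells did not cross, being lower in Cyp51-KO tumors in all 6 classes, with intervals apart in 4, for example 12.3% in Cyp51-KO and 27.5% in sg-Ctrl at 2000 to 4000 UMIs. Treg cells crossed as well by point value, but at a lower limit. Under 1000 UMIs they were 8.53% in Cyp51-KO (22 cells) and 4.76% in sg-Ctrl (2 cells), with intervals that overlapped. In each class above they were lower in Cyp51-KO, with 6.21% in Cyp51-KO against 11.3% in sg-Ctrl at 2000 to 4000 UMIs. A class of fixed UMIs takes a different part of each group's lymphocytes, since the median lymphocyte had 3898 UMIs for Cyp51-KO tumors, against 7088 for sg-Ctrl tumors, and the part of this in the crossing was not tested.

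**Figure D3:**
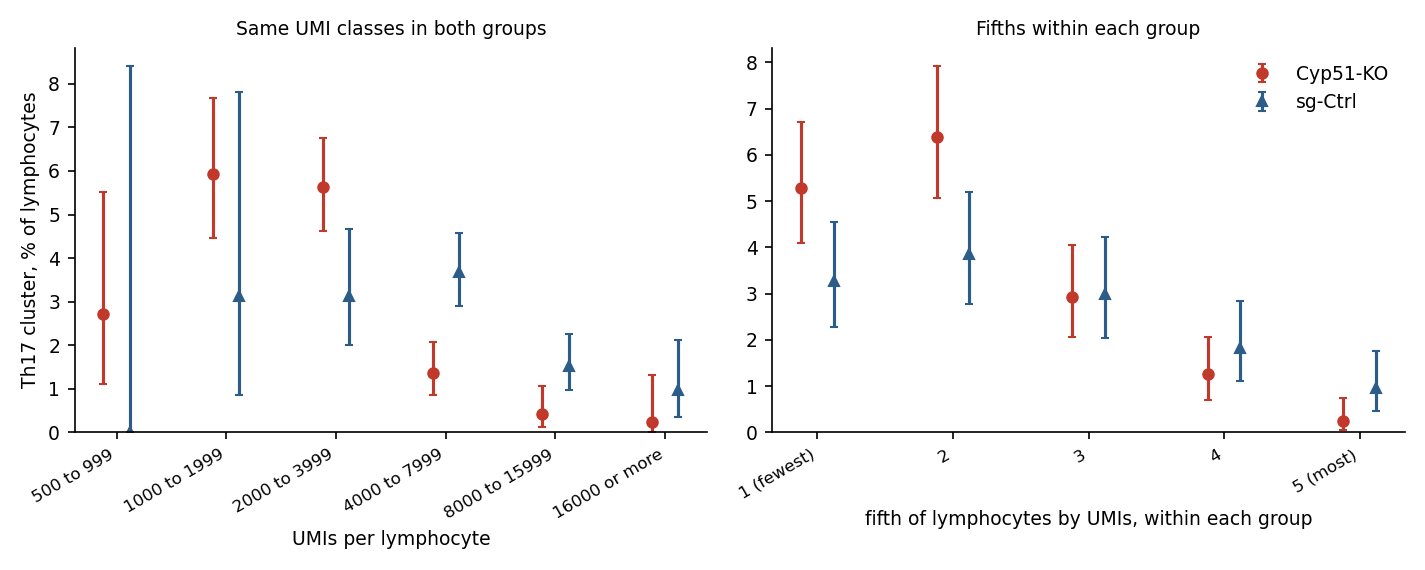
Th17 cluster as a percentage of lymphocytes in 6 classes of UMIs per cell that are the same for both groups (left), and in 5 bins of UMIs within each group (right), with exact 95% binomial intervals. On the left the Cyp51-KO share is the higher one under 4000 UMIs, where the intervals overlap in each class, and the lower one above. The intervals are apart only from 4000 to 8000 UMIs. On the right the intervals overlap in all 5 bins.

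Genes detected per cell went with the UMIs. Th17 cells of Cyp51-KO tumors had from 346 to 4866 genes with a median of 1170, and those of sg-Ctrl tumors had from 774 to 5362 with a median of 2109. The log2 ratio, -0.85, was the lowest of the 13 lymphocyte clusters, followed by Th1-like cells (-0.79), and Treg cells were at -0.63. The interquartile ranges, 966.75 to 1403.25 genes in Cyp51-KO and 1763.25 to 2611 genes in sg-Ctrl, lay apart, as they did in 4 of 13 lymphocyte clusters (30.8%). Across the cells of the cluster, genes and UMIs ranked almost alike, with Spearman's rho 0.96 in Cyp51-KO (192 cells), against 0.97 in sg-Ctrl tumors (134 cells).

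The log2 ratio of genes was also taken at a common number of UMIs, where it was nearer to 0. On lines of log2 genes against log2 UMIs, drawn through the cells of 2000 to 8000 UMIs, a Th17 cell of 4000 UMIs had 1598 genes in Cyp51-KO (127 cells), against 1705 genes in sg-Ctrl tumors (100 cells), a log2 ratio of -0.093. The scatter of single cells around these lines had an SD of 0.11 for Cyp51-KO tumors, against 0.097 for sg-Ctrl tumors on the log2 scale. This is the spread of cells and not the error of the lines, which was not estimated. The same log2 ratio on the lines was -0.084 for Treg and -0.077 for Th1-like cells. Within UMI classes the Th17 median at 4000 to 8000 UMIs was 2016 genes in Cyp51-KO (21 cells) and 2079 in sg-Ctrl (77 cells). At 2000 to 4000 UMIs it was 1247 genes in Cyp51-KO (106 cells) and 1420 in sg-Ctrl (23 cells). In the class of 2000 to 4000 the Cyp51-KO cells also had fewer UMIs, with a median of 2700.5 against 3070 in sg-Ctrl. Cells could not be thinned to a common number of UMIs, since only their totals were used.

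**Figure D4:**
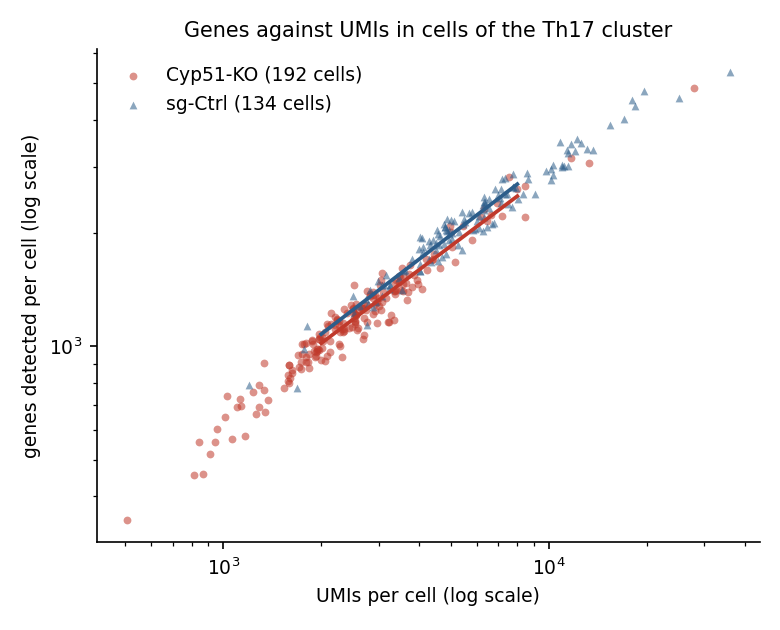
Genes detected against UMIs (both on log scales) for the single cells of the Th17 cluster, 192 from Cyp51-KO and 134 from sg-Ctrl tumors, with least-squares lines over 2000 to 8000 UMIs. The lines stand at 1598 genes in Cyp51-KO and 1705 in sg-Ctrl at 4000 UMIs, and more of the Cyp51-KO cells lie at the low end of both axes.

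The mitochondrial percentage, which is often read as a sign of damaged cells when high, was low in the cluster in both groups. Its median was 0.764% in Cyp51-KO (25th to 75th percentile 0.579 to 1.08%), against 0.976% in sg-Ctrl tumors (0.710 to 1.24%), and the highest cell had 3.11% in Cyp51-KO and 2.82% in sg-Ctrl. The difference of the medians was -0.21 percentage points, and the interquartile ranges overlapped. Summed over cells, 4890 of 575616 UMIs were mitochondrial in Cyp51-KO (0.850%, 0.826 to 0.874%), against 9296 of 908214 in sg-Ctrl tumors (1.02%, 1.003 to 1.04%). The intervals of these sums take each UMI as independent and leave out the spread between cells. Treg cells had nearly the same medians, 0.778% in Cyp51-KO and 0.997% in sg-Ctrl, and Th1-like cells higher ones, 1.23% in Cyp51-KO and 1.46% in sg-Ctrl. The median was lower in Cyp51-KO tumors in 12 of 13 lymphocyte clusters. Within the cluster the percentage did not rank with the UMIs, with Spearman's rho -0.00086 for Cyp51-KO tumors, against 0.050 for sg-Ctrl tumors over the same cells.

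**Figure D5:**
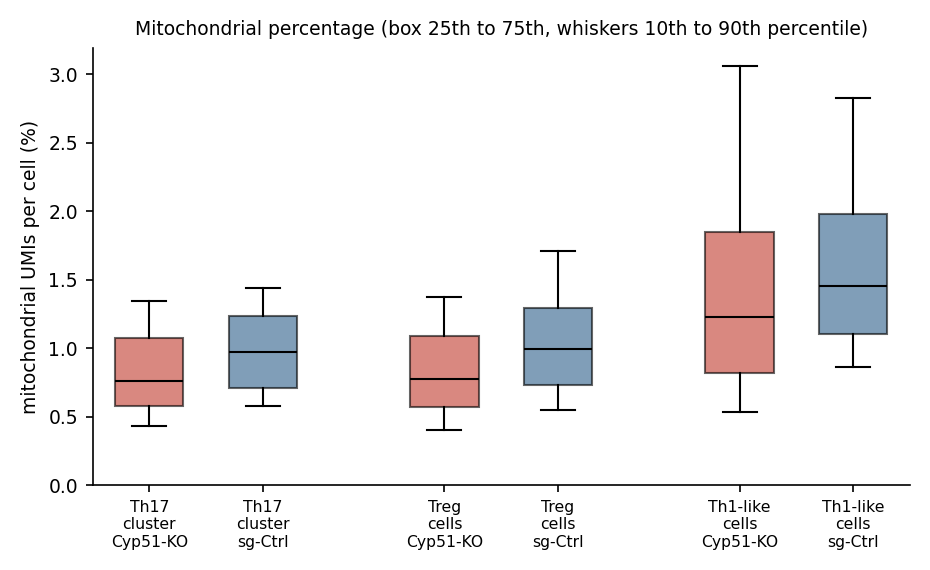
Mitochondrial percentage per cell in the Th17, Treg and Th1-like clusters of Cyp51-KO and sg-Ctrl tumors, with boxes from the 25th to the 75th percentile, the median as a line and whiskers from the 10th to the 90th percentile. The boxes of the groups overlap in each cluster, and the Th17 medians of 0.764% in Cyp51-KO and 0.976% in sg-Ctrl are close to those of Treg cells.

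The authors' normalization, SCTransform, brings cells of unlike depth to a common one, and it acted unequally on the groups in this cluster. The corrected total was above the raw one in 95.8% of the Th17 cells of Cyp51-KO tumors (184 of 192 cells, 92.0 to 98.2%) and in 68.7% of those of sg-Ctrl tumors (92 of 134 cells, 60.1 to 76.4%). The median ratio of corrected to raw total was 2.45 for Cyp51-KO tumors, against 1.18 for sg-Ctrl tumors. Treg cells had ratios of 2.32 in Cyp51-KO and 1.29 in sg-Ctrl, and Th1-like cells 3.13 in Cyp51-KO and 1.53 in sg-Ctrl. After the correction the median total was 6132 in Cyp51-KO against 6518.5 in sg-Ctrl, a log2 ratio of -0.088 in place of -1.11. The number of genes above 0 kept most of its gap, at 1337.5 for Cyp51-KO tumors, against 2109 for sg-Ctrl tumors (log2 ratio -0.66). Genes were above their raw number in 90.1% of the Cyp51-KO and 36.6% of the sg-Ctrl cells. Values of single genes in the cluster, *Il17a* among them, were not analysed here.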

How the data were processed

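The authors aligned 5’ droplet reads to GRCm38 with Cell Ranger 7.0, pooled them with Seurat 4.2.0 under R 4.2.0, removed cells by genes, UMIs and mitochondrial percentage, normalized with SCTransform, clustered, dropped clusters with few control cells, and named the others. No doublet caller was run here. The deposited table holds raw counts of UMIs and genes per cell, a percent of mitochondrial UMIs computed by the authors, and SCTransform totals. These totals are whole numbers but not counts, and were treated as a deposited score. Cells were assigned to Cyp51-KO or sg-Ctrl by the deposited group label, tied to these by the study's legend and by barcode prefixes that match the sample titles. Although 2 samples per group are listed, cells carry 1 prefix per group, so cells were pooled by group. No test was made.

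Lymphocytes were 13 clusters. Shares have exact 95% binomial intervals, medians exact intervals from the ordered cells, and sums exact Poisson intervals. Intervals of summed UMIs, mitochondrial ones included, leave out the spread between cells. The range of a log2 ratio sets the bounds of both groups against each other. A share of 0 is given with the limit that 3 counts allow. Alternatives were other denominators, at least 1000 UMIs, a mitochondrial limit of 2.5%, removal of the top 5% of cells by UMIs within a group, and means in place of medians. Median genes within UMI classes had been planned. Shares within UMI classes, 5 bins of UMIs within groups and lines of genes on UMIs were added after the data were seen. So were SCTransform totals and summed mitochondrial UMIs. The members and reference clusters were chosen with earlier results of these data known. Genes named are the 4 given for the cluster and Cyp51, with positions from RefSeq on GRCm38.p6. Python 3.11.15 was used with pandas 2.3.3, NumPy 2.4.6, SciPy 1.17.1 and Matplotlib 3.10.9. The intervals of shares and of medians were tested on simulated data, and the other intervals and limits were not.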

Additional observations from a re-analysis of the deposited data

How the results depend on the processing

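No paired analysis was possible because no cell is linked to one of the samples of its group, and leaving out each library was not run for the same reason. The filters on UMIs and mitochondrial percentage, and leaving out the cells with the most UMIs, moved no value beyond its counting interval. The log2 ratio of Th17 cells per Th1-like cell (0.36) was 0.57 with at least 1000 UMIs, where the intervals of the shares parted. The log2 ratio of the Th17 share of lymphocytes, 0.32, was 0.92, 0.85, -1.43, -1.88 and -2.04 in the UMI classes from 1000 upwards, and -0.54 and -1.94 in bins 4 and 5 of UMIs within groups. The class under 1000 UMIs gave no ratio, since it held 0 Th17 cells in sg-Ctrl tumors. The log2 ratio of median UMIs, -1.11, was -0.25 relative to all lymphocytes. After SCTransform it was -0.088, but SCTransform brings cells to a common depth by design, so this value is no check of the raw difference. The log2 ratio of median genes, -0.85, was -0.037 as the mean over UMI classes, -0.093 on the lines at 4000 UMIs and -0.66 after SCTransform. That mean gives each class the same weight. From 1000 UMIs upwards the classes had 0.025, -0.19, -0.044, -0.076 and 0.099. The last of them rests on 1 Cyp51-KO cell, and that of -0.19 on 106 Cyp51-KO and 23 sg-Ctrl cells. Classes of 8000 or more UMIs rest on few Th17 cells, 5 for Cyp51-KO tumors, against 30 for sg-Ctrl tumors.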
